A study of Drosophila melanogaster with 3 samples.

Results

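Peaks of the Notch-pathway transcription factor Su(H) are described here at the genes of the enzymes that cut the Notch receptor. These are kuz, an ADAM metalloprotease gene, and Psn, nct, aph-1 and pen-2, the genes of the 4 subunits of gamma-secretase. The 5 genes were taken by name from 13945 protein-coding genes annotated on 6 chromosome arms of Drosophila melanogaster, by a rule that uses no peak value. Every peak summit in one of these genes or within 2 kb of it was collected. Binding was measured by ChIP-seq, the sequencing of DNA that is precipitated with a protein, in embryos of a transgenic line that carries Su(H) with green fluorescent protein (GFP) at its C-terminus. The 3 libraries are labelled as biological replicates of a single group, whole embryos of mixed sex aged 0 to 24 h. The chromatin was precipitated through GFP, although one label field gives Su(H) as the antibody, and it had been sonicated to 200 to 800 bp. There was 1 group, and so no conditions to compare. The promoter that drives the fusion is not given in the sources used here, whole embryos cannot tell cell types or hours apart, and no control library was analysed here.

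Notch is a receptor in the cell membrane that signals by being cut. When a ligand such as Delta or Serrate on a neighbouring cell binds Notch, Kuz removes most of the part outside the cell, and gamma-secretase then cuts the remaining stub within the membrane. The freed intracellular domain enters the nucleus, joins Su(H) on DNA and switches on target genes. Within gamma-secretase, presenilin (Psn) holds the catalytic site, nicastrin (nct) is a glycoprotein that receives the substrate, Aph-1 is a scaffold, and Pen-2 enables the self-cleavage that activates presenilin.

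The deposited files were peak lists on the dm6 genome, each peak with a signal value of the authors' own and a summit. One list of 30000 peaks came from the pooled libraries, and each replicate had a list of 30000. The 3833 peaks of highest pooled signal form the list that the authors selected by agreement between replicates, called thresholded in what follows. Its lowest signal was 105.653, and the next peak outside it had 105.647. Median signal was 20.3, 16.8 and 17.7 in replicates 1 to 3, and the reads behind a peak are unknown. A pooled peak was followed into a replicate list by the nearest summit within 200 bp, so SDs over the 3 replicates include any difference in depth between them.

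A thresholded summit lay in or within 2 kb of 4 of the 5 genes, against 33.0% of all protein-coding genes (4608 of 13945). The genes were kuz, nct, aph-1 and pen-2, and Psn had none. Without the 2 kb on each side, 1 of the 5 genes, kuz, kept a thresholded summit, against 11.2% of all genes. The 4 genes held 6 thresholded summits, and all 6 were at promoters, here meaning within 500 bp of an annotated start. Most thresholded peaks are so placed: 2167 of all 3833 lay within 500 bp of a protein-coding start. At a start of the gene itself, 3 of the 5 had a thresholded summit, against 19.4% of all genes. These were kuz, aph-1 and pen-2, and the summit at pen-2 was nearer to the start of another gene. Among the 1000 strongest peaks, 1 of the 5 genes had a summit (aph-1), against 11.6% of all genes. The count of 5 genes is small and these differences from the background were not tested.

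The 5 genes share one feature of position that the choice did not use: each has the start of another protein-coding gene within 1 kb. This holds for 42.9% of all protein-coding genes (5985 of 13945). The median distance to the nearest such start was 568 bp for the 5 genes and 1380 bp for all genes. A neighbour on the opposite strand, reading away from the gene, stood before kuz, Psn, aph-1 and pen-2. The neighbour of nct, CG7006, reads in the same direction as nct. A close neighbour goes with more peaks across the genome. A thresholded summit in or within 2 kb was found at 45.1% of genes with such a neighbour and at 24.0% of genes without. At a start of the gene itself, it was found at 30.0% of genes with such a neighbour. Whose start each summit of the 5 genes was nearest to is therefore given for each gene.

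**Figure D1:**
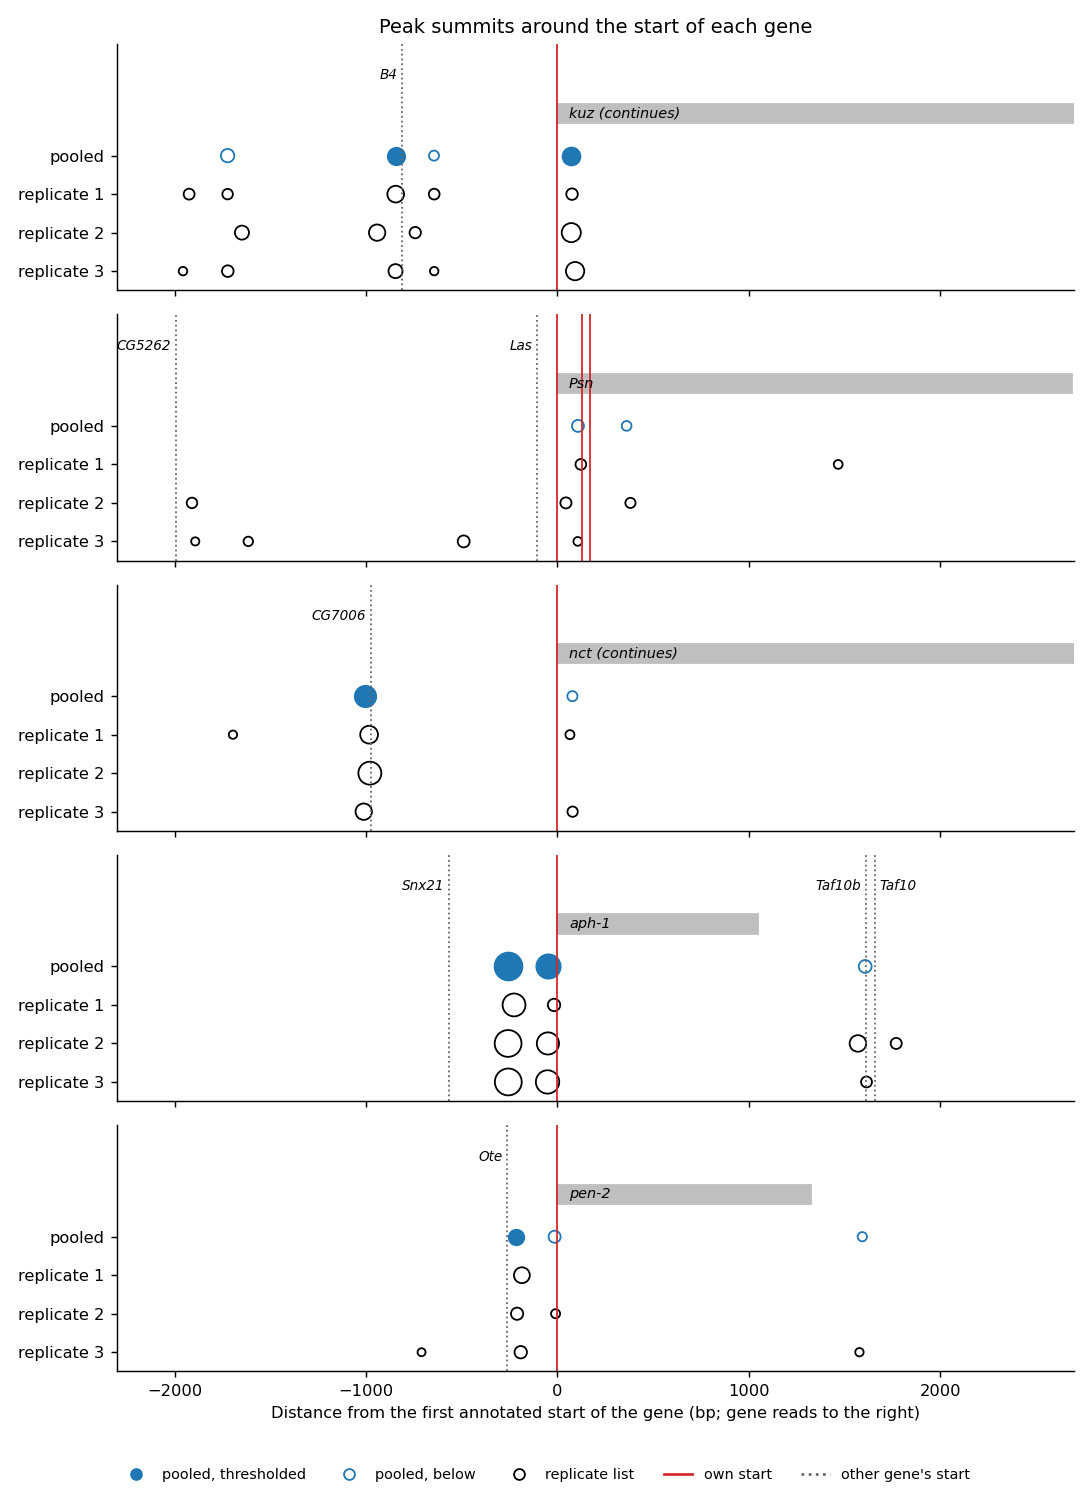
Summits of the pooled and replicate peak lists around each gene, by distance in bp from its first annotated start. Circle area is proportional to signal over the median signal of the same list, filled circles are thresholded, red lines are starts of the gene and dotted lines are starts of other genes. Thresholded summits lie on the side of the neighbour's start at nct and pen-2, and Psn has open circles only.

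kuz, whose product makes the first cut after ligand binding, spans 2L 13550139 to 13639411 on the plus strand (FBgn0259984, 89273 bp). Its strongest peak sat at its own start (2L 13550003 to 13550418), with the summit 72 bp downstream of the start and 883 bp from that of B4, the neighbour on the opposite strand. The pooled signal was 158, rank 1954 of 30000. In the replicates the signal was 29.4, 67.1 and 64.8 (mean 53.8 ± 21.1, SD, n = 3), at ranks 6297, 1343 and 1491. Replicate 1 was low, and replicates 2 and 3 lay close together. The 3 replicate summits fell within 20 bp of each other. The bases before the start are shown because the peak covers most of them, and capitals mark the Initiator core TCAGT, a core promoter element, on either strand. They are from the NCBI Release 6 assembly (dm6), chr2L:13549989-13550138, plus strand, 5′ to 3′.
kuz upstream: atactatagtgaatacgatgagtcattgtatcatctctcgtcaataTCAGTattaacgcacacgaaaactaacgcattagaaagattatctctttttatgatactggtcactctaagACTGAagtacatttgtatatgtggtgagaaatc

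The other thresholded peak within 2 kb of kuz belonged by position to B4. It spans 2L 13549087 to 13549502, and its summit lay 33 bp downstream of the B4 start and 844 bp upstream of kuz. Its pooled signal was 149.8, rank 2148, close to that of the kuz start. In the replicates it had 62.1, 49.1 and 38.3 (49.8 ± 11.9, SD, n = 3). The peak at B4 was thus the higher of the pair in replicate 1, and the peak at the kuz start was the higher in replicates 2 and 3. Mean signal at the 2 peaks differed by less than the SD of either.

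Past its start, kuz showed only weak peaks. The gene body, over 2 kb from the start, held 6 pooled summits and no thresholded one. Of the 307 protein-coding genes of 50 kb or more, 41.0% had a thresholded summit inside the gene and over 2 kb from every own start. Pooled summits in the body numbered 0.672 per 10 kb in kuz, against a median of 1.09 over the 307 long genes, of which 32.9% had fewer per 10 kb than kuz. The strongest was in an intron 20924 bp downstream of the start, with a signal of 69.5 (rank 7278), and was found in 2 of 3 replicate lists. The other body summits had signals of 32.5 to 48.4, and 1 of them was found in no replicate list. At the far end, pooled summits of 57.2 and 31.9 lay 988 and 125 bp downstream of a start of the next gene, ics.

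**Figure D2:**
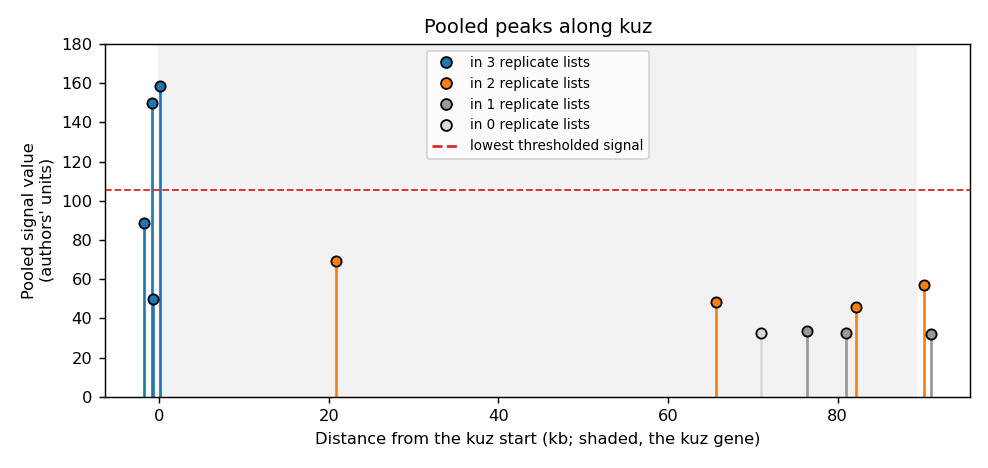
Pooled signal (y axis, the authors' units) of the 12 pooled summits in and within 2 kb of kuz, by distance from its start in kb. Colour gives the number of replicate lists with a summit within 200 bp, and the dashed line is the lowest thresholded signal, which 2 summits exceed, both near 0 kb.

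Psn encodes presenilin, the catalytic subunit of gamma-secretase, and was the only one of the 5 genes with no thresholded summit in or within 2 kb. It spans 3L 20432468 to 20435156 on the plus strand (FBgn0284421, 2689 bp) and has 3 annotated starts, the last 171 bp after the first. The first lies 107 bp from the start of Las, a lipoic acid synthase gene on the opposite strand. A pooled peak did sit there (3L 20432367 to 20432782), with its summit 20 bp upstream of a Psn start and 214 bp from the Las start. Its pooled signal was 71.1, below the thresholded limit of 105.653, at rank 6989. The replicates gave 25.5, 22.6 and 14.9 (21.0 ± 5.52, SD, n = 3), at ranks 8671, 8908 and 20496. Replicates 1 and 2 were a little above the medians of their lists, 20.3 and 16.8, and replicate 3 was below its median of 17.7. Replicate 3 had a higher summit of 27.7 (rank 6688), 490 bp upstream of a Psn start and 383 bp downstream of the Las start. The pooled list had no summit at that place. The pooled −log10 q value of the peak of 71.1 at the Psn start was 1.45, where thresholded peaks reach the list's maximum of 3.85 in 3569 cases. The remaining pooled summits had signals of 47.1, 190 bp downstream of a Psn start, and 44.0, 375 bp downstream of the start of mRpL15.

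nct, the gene of the substrate receptor nicastrin, spans 3R 24851601 to 24854869 on the plus strand (FBgn0039234, 3269 bp). Its thresholded peak lay at the start of the gene before it, CG7006, and not at its own (3R 24850390 to 24850805). The summit was 29 bp upstream of the CG7006 start and 1003 bp upstream of the nct start. The pooled signal was 226, rank 1053. In the replicates it was 69.9, 96.9 and 52.1 (73.0 ± 22.6, SD, n = 3), and in each of the 3 lists the summit was 38 bp or less from the CG7006 start and 980 bp or more from that of nct. At the nct start itself, a pooled summit 78 bp downstream (3R 24851471 to 24851886) had a signal of 50.5 at rank 12326. It was matched by 18.1 in replicate 1 and 20.7 in replicate 3, and replicate 2 had no summit there. A further pooled summit of 47.4 lay 121 bp downstream of the start of HDAC11, a histone deacetylase gene.

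Both nct peaks held a Su(H) consensus site, the only such sites within 100 bp of a pooled summit among the 5 genes. The consensus was searched as CGTGGGAA, TGTGGGAA, CGTGAGAA or TGTGAGAA on both strands. One site lay 57 bp from the summit at CG7006, in that gene's 5′ untranslated region. The other lay 34 bp downstream of the nct start and 44 bp from the weaker summit. They are shown with 8 bases to each side, the site in capitals, 5′ to 3′ on the strand that reads as the consensus: the first from chr3R:24850647-24850670, minus strand, and the second from chr3R:24851627-24851650, plus strand (dm6).
Su(H) site near CG7006: actttacaCGTGAGAAatgtttca
Su(H) site near the nct start: cgcgatttCGTGGGAAtcttcgat

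The bases before CG7006 are shown because the summit of the strongest nct-associated peak falls in them (dm6, chr3R:24850477-24850626, plus strand, 5′ to 3′). Capitals mark the DREF element TATCGATA, bound by a factor of housekeeping promoters, whose first base is 13 bp before the summit, and the Initiator core TCAGT, which lies 19 bp after the summit and again farther upstream.
CG7006 upstream: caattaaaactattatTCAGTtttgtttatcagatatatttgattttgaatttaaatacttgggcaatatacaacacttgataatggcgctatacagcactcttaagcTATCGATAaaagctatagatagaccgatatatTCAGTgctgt

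aph-1, the scaffold gene, carried the strongest peaks of the 5 genes. It is a compact gene at 2L 2766233 to 2767281 on the plus strand (FBgn0031458, 1049 bp), and Snx21, a sorting nexin gene, starts 568 bp away on the opposite strand. Both of its thresholded peaks lay in the interval between the 2 starts. They were narrow in the pooled list only, 118 and 146 bp wide against a median of 416 bp in the thresholded list. In replicates 1 to 3 both matched peaks were 396, 420 and 396 bp wide, the median width of each list. The stronger thresholded peak (2L 2765932 to 2766049) had its summit 259 bp upstream of the aph-1 start and 309 bp from that of Snx21. Its pooled signal was 384, rank 382, with 116, 132 and 139.9 in replicates 1 to 3 (129 ± 12.2, SD, n = 3). The replicates were close, and the ranks of 481, 359 and 334 were near each other too. The second (2L 2766061 to 2766206) had its summit 52 bp upstream of the aph-1 start, with a pooled signal of 292 at rank 651. Its replicate values of 34.1, 90.4 and 105.9 (76.8 ± 37.8, SD, n = 3) were more spread, replicate 1 being the low one. The stronger summit was above the second in all 3 replicates. The distance between these 2 pooled summits is within the range of sonicated fragment lengths. The 300 bases before the aph-1 start hold both summits and are shown for that reason, with the Initiator core TCAGT in capitals, 14 bp after the stronger summit (dm6, chr2L:2765933-2766232, plus strand, 5′ to 3′).
aph-1 upstream: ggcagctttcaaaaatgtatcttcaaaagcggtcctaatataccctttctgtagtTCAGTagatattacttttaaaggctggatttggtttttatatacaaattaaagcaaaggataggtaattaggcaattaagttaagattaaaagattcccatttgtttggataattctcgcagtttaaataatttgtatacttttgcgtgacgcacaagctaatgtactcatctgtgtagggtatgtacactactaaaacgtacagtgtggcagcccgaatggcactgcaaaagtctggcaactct

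Beyond its promoter, aph-1 had 1 other pooled summit within 2 kb, and it lay 5 bp from the start of Taf10b, a gene of a general transcription factor subunit. Its pooled signal was 81.3, rank 5715, and it was found in 2 of 3 replicate lists.

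pen-2, whose small product completes gamma-secretase, spans 2R 18277439 to 18278762 on the plus strand (FBgn0053198, 1324 bp). Ote, the gene of the inner nuclear membrane protein Otefin, starts 262 bp away on the opposite strand. The thresholded peak (2R 18277014 to 18277429) lay between the 2 starts, 45 bp from that of Ote and 217 bp from that of pen-2. Its pooled signal was 119, rank 3151, the weakest of the 6 thresholded summits. The replicates had 55.7, 27.5 and 30.0 (37.7 ± 15.6, SD, n = 3), replicate 1 standing above the other two. In all 3 lists the summit was nearer to Ote, at 76, 51 and 70 bp, than to pen-2, at 186, 211 and 192 bp. A weaker pooled summit lay at pen-2 itself, 15 bp upstream of its start, with a signal of 71.7 at rank 6902. Replicate 2 alone had a summit of its own there, with a signal of 15.1. The 262 bp between the starts of Ote and pen-2 are within the fragment range of 200 to 800 bp. Other pooled summits near pen-2 had signals of 33.4 to 50.6 and lay 1592 to 3194 bp downstream of its start.

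**Figure D3:**
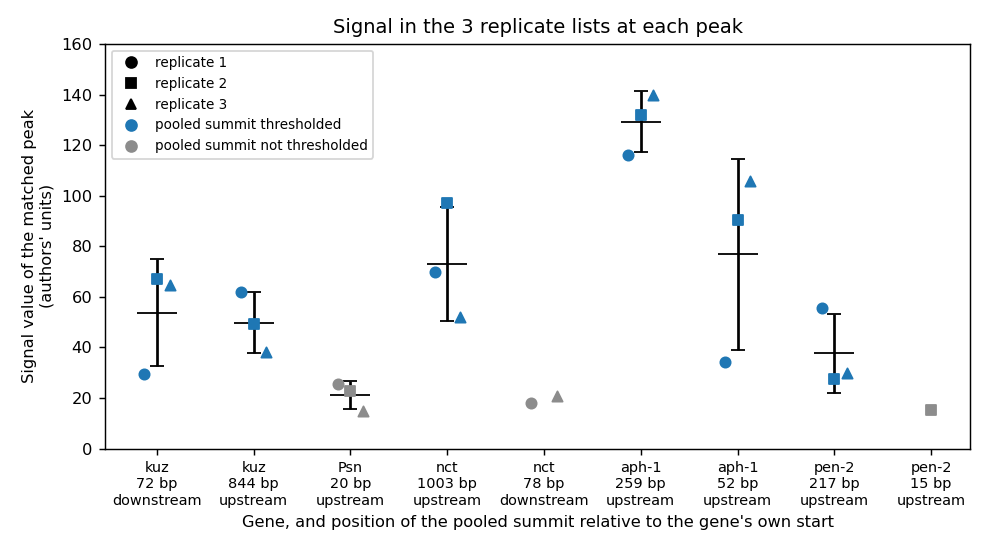
Signal (y axis, the authors' units) of the matched peak in replicates 1 to 3 for each summit described, with its position relative to the start of its gene below. Horizontal lines are means and error bars are SDs over 3 replicates, drawn where all 3 had a match, and blue marks thresholded summits. The 3 points of the stronger aph-1 peak lie above all others, and those of Psn near the bottom.

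Ordered by mean signal of the strongest peak, the genes ran aph-1 (129), nct (73.0), kuz (53.8), pen-2 (37.7) and Psn (21.0). aph-1 was first and Psn last in each of the 3 replicates. The 3 genes between them changed places: pen-2 exceeded kuz in replicate 1, and kuz exceeded nct in replicate 3. None of the 4 neighbouring pairs could reach a p below 0.25 with 3 replicates. aph-1 was above nct by a mean log2 ratio of 0.87 ± 0.50 (SD, n = 3, higher in 3 of 3 replicates), with an exact two-sided sign-flip p of 0.25. The mean log2 ratio of pen-2 over Psn was 0.81 ± 0.46 (SD, n = 3, 3 of 3 replicates), with the same exact p of 0.25. For nct over kuz it was 0.49 ± 0.78 and for kuz over pen-2 0.49 ± 1.23 (SD, n = 3, 2 of 3 replicates each), both with an exact p of 0.5. After Benjamini-Hochberg adjustment over the 4 pairs every exact p was 0.5. In the pairs of nct with kuz and of kuz with pen-2 the mean log2 ratio was smaller than its SD over replicates. In the pairs of aph-1 with nct and of pen-2 with Psn it was larger than its SD, although 3 replicates do not allow a smaller p. The pairs and their direction were taken from these same replicate signals, so positive mean ratios were favoured by the ordering itself.

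The replicate spread of these peaks can be set beside that of all thresholded peaks found in 3 replicates (n = 3751). For all thresholded peaks, the nearest replicate summit was taken even where another pooled summit was nearer to it. For the 5 genes such a summit was left out, so the 2 sets were not matched by quite the same rule. Their coefficient of variation (SD over mean) had a median of 20.6%. The stronger aph-1 peak, at 9.45%, was steadier than most, 14.8% of thresholded peaks having a lower value. The peaks at the kuz start (39.3%) and at Ote and pen-2 (41.4%) were more variable than 85.3% and 87.4% of them. The second aph-1 peak was more variable still, at 49.2%. In position, replicate summits spanned 20 bp at the kuz start, 25 bp at pen-2, 31 and 34 bp at the 2 aph-1 peaks and 32 bp at nct, against a median of 49 bp over thresholded peaks. They spanned more than this median at the B4 peak near kuz, 97 bp, and at Psn, 78 bp. Of all 26 pooled summits at the 5 genes, 11 (42.3%) were found in 3 replicate lists, against 31.9% of the 30000 pooled summits. One replicate summit can serve neighbouring pooled summits in this count, as it did at pen-2.

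A different order appears when only the start of each gene is considered. All 5 genes had a pooled summit within 500 bp of an own start, against 54.4% of all genes, and all 5 had one in or within 2 kb, against 80.8% of all genes. The strongest such signal was 384 at aph-1, 158 at kuz, 119 at pen-2, 71.1 at Psn and 50.5 at nct. nct thus moved from the second place to the last, since its strong peak lay at CG7006. Of the 7593 genes with a value, 95.9% were below aph-1, 79.9% below kuz, 69.6% below pen-2, 45.4% below Psn and 26.9% below nct. The median of those genes was 78.1, so the nct and Psn starts were below it. The value for pen-2 is that of the summit nearer to Ote.

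**Figure D4:**
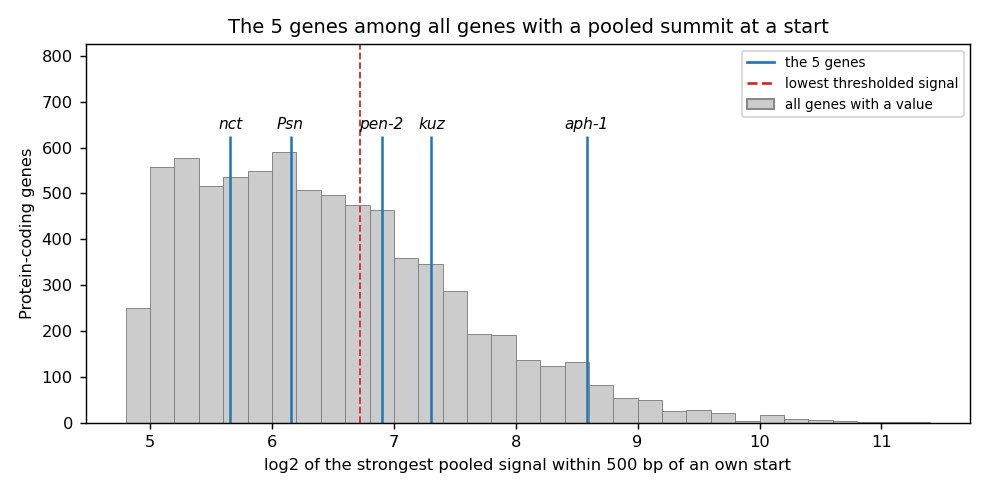
Number of protein-coding genes (y axis) by the log2 of the strongest pooled signal within 500 bp of an own start, for the 7593 genes with such a summit. Blue lines mark the 5 genes and the dashed line the lowest thresholded signal, below which Psn and nct lie.

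The genes most alike in pooled signal, among those with a thresholded peak at their own start, were found for each of the 4 genes with a thresholded peak. For aph-1 they were RpL13, a ribosomal protein gene, and Dref, the gene of the factor that binds the DREF element, which share 1 peak of 384 (132 ± 8.80 over the replicates, SD, n = 3). For nct they were ben, a ubiquitin-conjugating enzyme gene (225, 74.1 ± 7.74), and OtopLa, a gene of the otopetrin channel family (225, 74.1 ± 16.0). For kuz they were CG12024 (158, 61.0 ± 10.9) and Cpsf100, a gene of the mRNA cleavage machinery (158, 58.1 ± 1.31). For pen-2 they were D1, the gene of a satellite DNA-binding protein (119, 36.1 ± 12.8), and CG11110 (119, 43.9 ± 8.21). These genes were matched on pooled signal alone, over 1 pooled list. For nct the matched signal was that of the peak at CG7006, 226, and not the 50.5 at its own start. For pen-2 it was that of the summit nearer to Ote.

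Sequence near the summits was searched on both strands within 100 bp of the strongest peak of each gene. A Su(H) consensus site was present at 1 of the 5, that at CG7006. Of thresholded peaks within 500 bp of a coding start 3.51% held one, of all thresholded peaks 3.57%, and of windows of the same size at 19252 protein-coding starts 2.06%. Within 50 bp of the summits none of the 5 peaks held a site, against 1.62% of thresholded peaks within 500 bp of a coding start. Its letters read in reverse order, as a control, were also present at the CG7006 peak, against 1.8% of thresholded peaks within 500 bp of a coding start. In the whole genes with 2 kb on each side there were 8 sites in kuz, the nearest 563 bp from a pooled summit, 2 at nct, and no match in the windows of Psn, aph-1 and pen-2. This is 0.0858 sites per kb at kuz, 0.275 at nct and 0.106 over the 6 chromosome arms. The distance at kuz is to pooled summits only. Weak replicate summits did lie within 100 bp of kuz sites. Their signals were 14.8 in replicate 1 and 14.4 in replicate 3 at the same site, and 13.1 in replicate 2 at another. Each was below the median of its list (20.3, 17.7 and 16.8).

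The promoter elements were spread unevenly over the 5 peaks, and each is given with its share of thresholded peaks within 500 bp of a coding start. The DREF element TATCGATA was at the nct-associated peak (9.23%), and another was at the weaker pen-2 summit, with its first base on the summit itself. The core CGATA of the insulator factor BEAF-32, which is contained in the DREF element, was at the peaks of Psn, nct and pen-2 (41.3%). The Initiator core TCAGT was at nct, aph-1 and pen-2 (34.5%), the E-box CANNTG at kuz and nct (62.6%), and the TATA box TATAAA at aph-1 (23.7%). The GAGA element GAGAG (24.7%) and the Motif 1 core GGTCACAC (6.6%) had no match in the 5 windows, and a Motif 1 core lay at the nct start, 80 bp before its weaker summit. Such matches describe the letters only, and no match says nothing about a factor.

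Other genes of the same protease families and of the pathway were read in the same way. Of 19 such genes 12 had a thresholded summit in or within 2 kb, against 33.0% of all protein-coding genes, and 6 of 19 had one within 500 bp of an own start, against 19.4%. With no flank the count was 6 of 19, against 11.2%. The list is small, the background is over genes of all lengths, and these differences were not tested. Of the other ADAM protease genes, kul and Meltrin had a thresholded peak, and Tace and mmd had none. The kul peak was the strongest of the 19 genes, with a pooled signal of 859 (rank 57; 283 ± 20.8 over the replicates, SD, n = 3). It lay 11028 bp from the nearest kul start and 107 bp from that of CIA30, a respiratory complex I assembly gene. The Meltrin peak had 156 (rank 2002) at 35 bp from its own start, with 65.3 in replicate 2 and 72.5 in replicate 3 and no match in replicate 1.

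Among the genes of furin proteases, which process the Notch precursor in mammals, Fur1 had a peak of 821 (rank 60; 276 ± 55.2, SD, n = 3), and Fur2 had no thresholded summit. The Fur1 peak lay 244 bp from its own start and 188 bp from that of Vps33B. Of 3 tetraspanin genes whose products help Kuz to mature, Tsp3A had a peak of 364 (115.03 ± 12.5, SD, n = 3) at 162 bp from its own start and 101 bp from that of Seipin. Tsp26A had one of 211 (66.7 ± 10.7, SD, n = 3), 18 bp from the start of the histone demethylase gene Kdm5 and 745 bp from its own, and Tsp86D had none. Of the presenilin-related signal peptide peptidases, SppL had a peak of 146 (39.7 ± 25.3, SD, n = 3) that lay 39 bp from the start of Lnk and 5929 bp from its own, and Spp had none. At kul, Tsp26A and SppL the summit was thus at another gene's promoter, as at nct. The SppL peak had 58.9, 11.1 and 49.1 in replicates 1 to 3, and the lowest signal in the list of replicate 2 was 11.0.

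Of the genes of proteins that the enzymes cut, N, Dl and Appl had a thresholded peak and Ser had none. N, the receptor gene, had 3 thresholded summits, the strongest of 691 (rank 96) in an intron. Dl, a ligand gene, had a peak of 195 in an intron (64.1 ± 9.76, SD, n = 3), 4300 bp from its nearest start. Appl, the gene of a relative of the amyloid precursor protein, had one of 112 (33.9 ± 19.3, SD, n = 3), 141 bp from the start of CG4293. The Appl peak had 48.4, 12.0 and 41.5 in replicates 1 to 3, that of replicate 2 being near the lowest of its list, 11.0. Of the genes of nuclear effectors, Su(H) had a peak of 215 at its own start (72.0 ± 16.7, SD, n = 3). The co-repressor gene gro had one of 670.05 at its own start (224 ± 36.0, SD, n = 3). The co-activator gene mam had one of 244 in an intron (82.6 ± 17.8, SD, n = 3), and H, the gene of a Su(H) antagonist, had none. The signal of aph-1, 384, was below those of kul, Fur1, N and gro and above those of the other 8 genes of this list with a thresholded summit.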

How the data were processed

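The members and the lists of related genes, motifs and alternatives were chosen with earlier results of these data known. Per the deposited file lists, each replicate list came from 1 ChIP library with a control, the pooled list from all 3, and the thresholded list from these by irreproducible discovery rate (IDR). The sources used here do not give the aligner, the peak caller, the read depth or the IDR cutoff. The authors' signal value per peak is deposited without a stated depth scaling. The deposited −log10 q value has ties at its maximum. Both were used only to describe, rank and filter peaks. No peak of 1 replicate list shared summit and signal with one of another (0 for each of the 3 pairs). Peak lists on dm3 were not used here, and 1 sequence is not reported here.

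Genes came from Ensembl release 115 (BDGP 6.54), where nct, kul and Dl are listed as Nct, Kul and Delta, and sequence came from the NCBI Release 6 genome. Peaks were within the chromosome lengths of that genome. Summits were assigned with Python 3.11.15, pandas 2.3.3, numpy 2.4.6 and scipy 1.17.1. A replicate summit was used where it lay within 200 bp, and for the values of a peak only where no other pooled summit was nearer to it. This last condition was not applied to the spread over all thresholded peaks. Neighbours in the order of members were compared by an exact two-sided sign-flip permutation test within replicates. The counting and matching of summits and sites were tested on planted data. Named genes were the members, genes whose start was nearest to or within 500 bp of their thresholded summits, listed genes with a thresholded peak, and the 2 genes closest in pooled signal to each member. Weaker summits and the genes nearest to them were named after their values were seen, as were listed genes without a thresholded peak. Replicates are biological per the labels, and values describe the spread between these 3 samples.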

Additional observations from a re-analysis of the deposited data

How the results depend on the processing

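The count of members with a thresholded summit, 4, was 3 or 4 under 8 alternatives (1 or 5 kb on each side, overlap of the whole peak, own starts only, a match in all 3 replicates, and the strongest peaks of each replicate in place of the thresholded list). It was 1 with no flank (kuz) and 1 with the 1000 strongest peaks (aph-1). Shares of all genes under the same rule are given for no flank (11.2%), the 1000 strongest peaks (11.6%) and own starts (19.4%). They are not given for the other alternatives, where the background may change too. These counts therefore do not show whether a difference from the background was stable. The pen-2 peak was not among the same number of strongest peaks, 3833, in replicates 2 and 3. In replicate 1 the peak at the kuz start (rank 6297) and the second aph-1 peak (rank 4631) were not among them either. kuz was counted in replicate 1 through the peak at B4 (rank 1555), and aph-1 through its stronger peak (rank 481). The 1 Su(H) site at the members' strongest peaks became 0 within 50 bp of the summit and stayed 1 within 200 bp. Thresholded peaks within 500 bp of a coding start held a site in 1.62% and 6.14% of cases at these 2 distances. The count of related genes, 12, was 6 with no flank and 6 with the 1000 strongest peaks, and 11 or 12 with 1 or 5 kb. For 1 or 5 kb no share of all genes is given beside this count either. All 4 neighbouring pairs kept their order by pooled signal, by the median and without each replicate in turn (lowest and highest 4). Leaving out 1 replicate gave mean signals of 124 to 136 for aph-1, 61.0 to 83.4 for nct, 47.1 to 66.0 for kuz, 28.7 to 42.8 for pen-2 and 18.7 to 24.1 for Psn. With the summit nearest an own start, chosen after the data were seen, the mean for aph-1 was 76.8 in place of 129. No mean could be formed there for nct and pen-2, which lacked a match in some replicate lists. By the pooled signal of that summit, 3 of 4 pairs kept their order, with pen-2 at 71.7 against 71.1 for Psn. The cause of these shifts was not tested. No paired analysis between groups was possible because all 3 samples belong to 1 group, and the replicate number paired only the members' signals within a list. Without read depths no counting interval can be given, so a value near the threshold, such as that of pen-2, is known only as well as its 3 replicates.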
